A study of Mus musculus with 46 samples.

Results

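Old and young mouse livers were compared at 4 h after partial hepatectomy (PH), the surgical removal of 70% of the liver, using 6 of the 46 arrays of the study. The 6 arrays were those titled for the 4 h operation in old animals (3 arrays) and in young animals (3 arrays), and no measured value was used to choose them. The study sampled liver at 0 h and at 0.5, 1, 2 and 4 h after PH or a sham operation, at both ages, and its design text sets out this comparison of ages and times. All mice were males of the CB6F1 hybrid strain. The old mice were 25 to 27 months of age and came from the National Institute on Aging, and the young mice were 5 to 6 months of age and came from Jackson Laboratories, so age and supplier cannot be told apart. Mice of both ages were anaesthetised with injected avertin and inhaled isoflurane. Total RNA of whole liver was measured on the Affymetrix Murine Genome U74 version 2 array, whose deposited values are log2 expression levels. Arrays of a group are replicates by their labels, which do not state whether separate animals were used, so the p-values reflect variation among arrays that could be technical in part.

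After PH the hepatocytes that remain leave their resting state and later divide. The first hours are a priming phase, in which cytokines such as TNF and IL-6, released in large part by Kupffer cells (the resident macrophages of liver), activate NF-kB and STAT3 in hepatocytes, and immediate early and acute phase genes are induced. DNA synthesis follows much later, and in rodents the growth of liver after PH is known to be slower and weaker in old age.

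The medians of the 6 arrays were alike, as were those of all 46 arrays (6.22 to 6.33). The deposited values were normalised by RMA, so like medians do not show that the RNA of the arrays was alike. Array medians lay between 6.27 and 6.29 in old livers and between 6.27 and 6.30 in young livers on the log2 scale. The mean of the 9 hybridisation spike-ins lay between 9.47 and 10.3 in old livers and between 9.70 and 10.9 in young livers (two-sided exact permutation test, p = 0.4, where 0.1 is the smallest possible with 3 arrays against 3). The 3′ minus 5′ difference of the actin control probes, a measure of RNA integrity, was 0.883 to 0.991 in old livers and 0.905 to 1.07 in young livers. Pairs of arrays correlated at 0.986 to 0.994 among old livers and at 0.989 to 0.993 among young livers, against 0.980 to 0.994 between the ages. Of 10 hepatocyte marker genes 8 were measured, and none passed the test between the ages. Their log2 levels over the 6 arrays lay between 7.38 and 13.9, and their differences ran from -0.31 for Hpd, a tyrosine breakdown enzyme, to 0.34 for Apob, the core protein of very low density lipoprotein.

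At 4 h after PH the genes that passed as higher in old livers included 4 of 20 MHC class I and II genes, 2 of 42 macrophage and Kupffer cell markers, 1 of 40 interferon-induced genes (Ifi27), 1 of 40 NF-kB and chemokine genes (Ccl5), and the lipid-related genes Cidec and Apoa4. None of 40 immediate early, 28 IL-6 and STAT signalling and 27 acute phase genes passed. Of 12422 probe sets, 27 passed at an adjusted p under 0.05 in limma (0.217%), of which 24 were higher in old livers (0.193%) and 3 lower (0.0242%). In all 27 the values of the old and young arrays did not overlap, which adds no support, since the test that picked them used the same arrays. Over all probe sets, 6.33% had all old arrays above all young arrays and 7.29% had them all below, and the median difference was -0.03. Named by 1 symbol and counted by the probe set with the highest mean, 19 of 8251 genes passed as higher in old livers and 3 as lower, and 42.9% of the genes had a positive difference. The call count varied with the single array left out: without old replicate 3 it was 2, without young replicate 2 it was 4, and without old replicate 1 it was 68. The 2 that passed in each of the 6 fits that left out 1 array were Noct and the unnamed probe set 98369_f_at. Both missed the threshold when the 6 arrays were fitted alone (adjusted p = 0.167 for Noct and 0.0860 for 98369_f_at), where 14 probe sets passed.

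**Figure D1:**
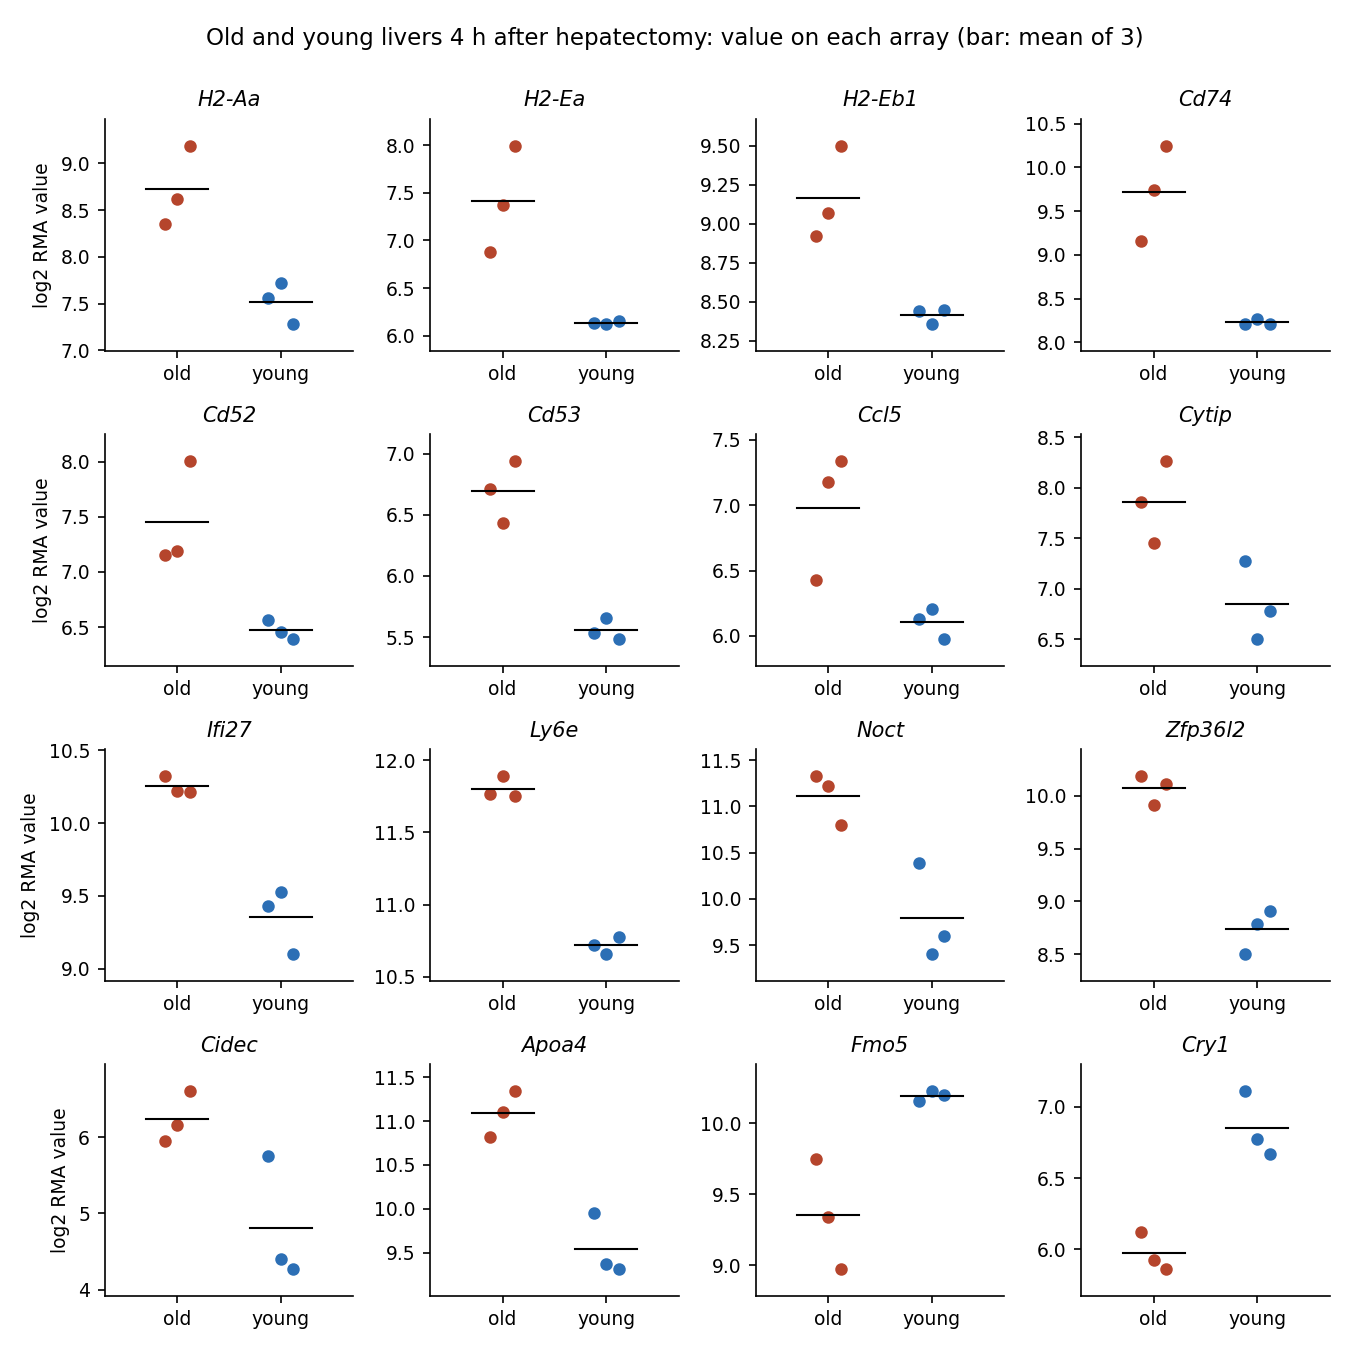
Log2 expression of 16 genes on each of the 6 arrays at 4 h after PH, with old livers left of young livers, each point 1 array and each bar the mean of 3. In the genes that passed, among them H2-Aa, Cidec and Noct, the points of the ages do not overlap, and in Cry1 and Fmo5 the old points lie below the young ones.

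Genes of MHC class II, the molecules that present peptides to CD4 T cells, were among the genes that passed. The invariant chain Cd74, which guides class II molecules to the peptide loading compartment, was 2.81-fold higher in old livers. H2-Aa, H2-Ea and H2-Eb1, which encode chains of the class II heterodimers, were 2.30-fold, 2.43-fold and 1.68-fold higher. These 4 were the members that passed among 20 measured MHC class I and II genes, 17 of which had a positive difference, with a list median of 0.20 against -0.02 over all genes. Before 4 h, H2-Eb1 at 0.5 h was the one case among these 4 genes that passed between the ages. At 0 h, 0.5 h, 1 h and 2 h the difference of Cd74 was 0.40, 1.09, 0.33 and 1.08, and that of H2-Aa was 0.48, 0.98, 0.20 and 0.71. That of H2-Ea was 0.32, 0.87, 0.02 and 0.65, and that of H2-Eb1 was 0.20, 0.63, 0.08 and 0.51. All 4 genes had larger values at 0.5 h and 2 h than at 0 h and 1 h.

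The promoters of H2-Aa and H2-Eb1 are shown because class II genes are known to share a promoter module whose Y box, CTGATTGG on either strand, binds the factor NF-Y. That of Noct, the named gene with the smallest adjusted p in the comparison, holds the same letters on the other strand. The sequences are those of RefSeq on GRCm38.p6, from 250 bases before to 50 bases after the gene start, with the Y box in capitals. H2-Aa lies at chr17:34287774-34288073 on the minus strand, with the Y box starting 51 bases before the gene start. H2-Eb1 lies at chr17:34305617-34305916 on the plus strand, with the Y box starting 62 bases before the gene start. Noct lies at chr3:51224197-51224496 on the plus strand, with the Y box starting 50 bases before the gene start and read on the opposite strand.
H2-Aa: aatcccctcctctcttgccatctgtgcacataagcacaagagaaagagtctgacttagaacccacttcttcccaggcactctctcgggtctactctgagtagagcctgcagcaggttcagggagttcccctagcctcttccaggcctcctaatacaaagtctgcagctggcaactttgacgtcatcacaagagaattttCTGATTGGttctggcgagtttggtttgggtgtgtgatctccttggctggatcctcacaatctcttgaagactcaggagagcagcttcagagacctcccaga
H2-Eb1: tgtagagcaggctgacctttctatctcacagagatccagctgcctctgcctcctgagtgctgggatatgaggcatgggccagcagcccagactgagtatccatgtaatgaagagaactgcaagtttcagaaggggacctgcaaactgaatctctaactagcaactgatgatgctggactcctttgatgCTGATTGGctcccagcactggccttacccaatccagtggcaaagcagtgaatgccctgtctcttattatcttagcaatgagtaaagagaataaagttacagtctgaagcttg
Noct: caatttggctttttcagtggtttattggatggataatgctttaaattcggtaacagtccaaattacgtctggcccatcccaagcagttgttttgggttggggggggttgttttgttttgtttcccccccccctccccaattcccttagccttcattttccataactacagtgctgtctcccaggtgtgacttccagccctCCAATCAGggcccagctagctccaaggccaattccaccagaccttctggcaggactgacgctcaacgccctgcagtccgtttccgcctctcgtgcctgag
The motif CTGATTGG, or its reverse complement, was present in 1346 of 32851 promoters of this length (4.1%). Of 24 genes that were looked up, 14 were in the promoter table, and 4 of these held it: H2-Aa, H2-Eb1, Noct and Hif1a. A match of letters is a description of the window and says nothing of binding.

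Cd74 measured 9.16, 9.74 and 10.2 in old livers, against 8.21, 8.26 and 8.21 in young livers, a difference of 1.49 on the log2 scale (95% interval 0.80 to 2.18, adjusted p = 0.0480 in limma). H2-Aa measured 8.35, 8.62 and 9.19 in old livers, against 7.56, 7.72 and 7.28 in young livers (difference 1.20, adjusted p = 0.0236). Both genes were spread over the old arrays, with replicate 3 highest, and had a narrower range over the young arrays. H2-Ea measured 6.88, 7.37 and 7.99 in old livers, against 6.13, 6.12 and 6.15 in young livers (difference 1.28, adjusted p = 0.0315). H2-Eb1 measured 8.92, 9.07 and 9.50 in old livers, against 8.44, 8.36 and 8.45 in young livers (difference 0.75, adjusted p = 0.00898). The order of the old arrays was the same in all 4 genes, with replicate 1 lowest. Without old replicate 3 none of the 4 passed, with differences of 1.23 for Cd74, 0.99 for H2-Ea, 0.97 for H2-Aa and 0.58 for H2-Eb1, and without young replicate 2 none passed either. H2-Eb1 passed when any of the other 4 arrays was left out. Without old replicate 1 all 4 passed, and it was the only array whose removal left the calls of Cd74 and H2-Ea in place. H2-Aa also lost its call without young replicate 3 (adjusted p in limma between the ages at most 0.381 over the 6 fits) and without old replicate 2. With all arrays kept, Cd74 missed the threshold with the dimmest probe sets left out (adjusted p = 0.0532), with trend and robust settings (0.0835) and with the 6 arrays fitted alone (0.0805). Cd74 also missed it with the replicate number as a block. With the 6 arrays fitted alone H2-Aa (adjusted p = 0.127 in limma), H2-Eb1 (0.188) and H2-Ea missed it too. H2-Ea also missed it with trend and robust settings (adjusted p at most 0.167 in these fits).

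Other genes of the same pathway did not pass. H2-Ab1, which pairs with H2-Aa, differed by 0.67 (0.29 to 1.05, adjusted p = 0.171 in limma), and its old arrays, at 7.22, 7.37 and 7.96, lay above the young ones at 6.83, 6.96 and 6.77. Ctss, the protease that trims the invariant chain, differed by 1.19 (adjusted p = 0.190). Both had ranges of old and young arrays that did not overlap. Ciita, the master activator of class II transcription, differed by -0.17 (-0.37 to 0.03, adjusted p = 0.609). The class I genes B2m, H2-K1 and H2-D1 differed by 0.22, 0.17 and 0.26, none of which passed.

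Of other genes known from leukocytes, Cd53, Cd52, Ccl5, Cytip and Dock2 were higher in old livers, a group put together after their values were seen. In bulk tissue, more cells of a type and more RNA per cell cannot be told apart. Cd53, a tetraspanin of leukocytes, measured 6.71, 6.43 and 6.94 in old livers, against 5.53, 5.66 and 5.48 in young livers, a difference of 1.13 (2.20-fold, adjusted p = 0.0236 in limma). Cd52, a small surface glycoprotein of lymphocytes and myeloid cells, measured 7.15, 7.19 and 8.01 in old livers, against 6.56, 6.45 and 6.39 in young livers (difference 0.98, adjusted p = 0.0119). Ccl5, a chemokine that draws T cells and monocytes, measured 6.43, 7.18 and 7.34 in old livers, against 6.13, 6.20 and 5.98 in young livers (difference 0.88, adjusted p = 0.00440). In each of the 3 genes the old arrays lay above the young ones, and the spread was larger over the old arrays. Cytip, an adaptor that regulates leukocyte adhesion, was 2.01-fold higher (difference 1.01, adjusted p = 0.00440), and Dock2, a guanine exchange factor of migrating leukocytes, was 1.39-fold higher from a low level (3.58, 3.52 and 3.85 in old livers, against 3.35, 2.99 and 3.18 in young livers). A second probe set of Cytip differed by 0.59 (adjusted p = 0.0809).

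Without old replicate 3, none of Cd53, Cd52, Ccl5, Cytip and Dock2 passed, with differences of 1.01, 0.70, 0.70, 0.80 and 0.38. Without young replicate 2 Ccl5 passed, and Cd53, Cd52, Cytip and Dock2 did not (adjusted p in limma at least 0.0640). Cd53 also lost its call without young replicate 1 and without young replicate 3, and Dock2 without young replicate 3. With the 6 arrays fitted alone Cd53 passed, and Cd52, Ccl5, Cytip and Dock2 did not.

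The macrophage and Kupffer cell markers lay higher as a list. Of 42 measured members, Cd52 and Cd53 passed, which are also known from other leukocytes. A positive difference was seen in 37 and a negative one in 5, and the list median was 0.29. The members were uneven, with Clec4f at 0.09, Adgre1 at 0.14 and Mrc1 at 0.01, against Csf1r at 0.40 and Mpeg1 at 0.79, none of which passed. In 14 members all old arrays were above all young arrays, a share of the list to be read beside 6.98% of all genes. The mean level over the list was 6.60 to 6.76 in old livers, against 6.23 to 6.43 in young livers, so the ages did not overlap. List means did not overlap in several other lists either. Among these were the ribosome biogenesis genes and the stellate cell, fibroblast and matrix genes (6.45 to 6.55 against 6.44). Lyz2, the lysozyme of macrophages and neutrophils, had the largest difference of the list, 1.50 (adjusted p = 0.160 in limma), with old arrays at 7.02, 7.42 and 7.60, against young arrays at 6.02, 5.82 and 5.71. C1qb, a complement subunit made by macrophages, differed by 0.87 (adjusted p = 0.493). The list median was 0.10 at 0 h, 0.36 at 0.5 h, 0.28 at 1 h and 0.31 at 2 h after PH, and 0.07 at 4 h after sham surgery, so the value at 4 h was not the highest.

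Markers of the other cell types of liver moved less. Among 28 neutrophil markers none passed, 20 differences were positive and the median was 0.08, with S100a8, a calcium-binding protein of neutrophils, at 1.26 (-0.02 to 2.54). In 4 of them all old arrays were above all young arrays (14.3%, against 6.98% of all genes), and in 1 all were below. The median of these markers was -0.04 at 0 h, 0.23 at 0.5 h, 0.32 at 1 h and 0.04 at 2 h after PH. Among 35 T and NK cell markers Ccl5 passed, 14 differences were positive and the median was -0.01. The 33 endothelial, 22 cholangiocyte and 19 red blood cell genes had medians of -0.02, -0.06 and -0.09, with none that passed, and the 29 pancreas, fat and muscle genes had a median of -0.08. Of 56 stellate cell, fibroblast and matrix genes 28 had a positive difference, and Mmp3, a matrix metalloproteinase, passed (3.62, 3.85 and 4.24 in old livers, against 3.49, 3.23 and 3.59 in young livers, difference 0.47, adjusted p = 0.0442). Mmp3 lost its call without young replicate 1 or 2 or without old replicate 2 or 3.

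Some immunoglobulin genes had the largest differences of the comparison, and were highest by far on 1 old array. Igkv6-23, a kappa light chain gene, measured 8.65, 8.52 and 12.6 in old livers, against 6.72, 6.16 and 6.20 in young livers, a difference of 3.57 (2.02 to 5.13, adjusted p = 0.0315 in limma). The probe set 93086_at, which the annotation gives to several kappa chain genes, measured 10.4, 10.4 and 13.9 in old livers, against 8.61, 7.93 and 8.09 in young livers (difference 3.37, adjusted p = 0.0218). Old replicate 3 stood far above the other two old arrays, which still lay above the young arrays. Ighm, the heavy chain of IgM, was at 8.68, 8.66 and 12.9 in old livers, against 8.21, 7.98 and 7.73 in young livers, and did not pass (adjusted p = 0.210). Jchain, which joins IgM and IgA into polymers, was at 4.98, 5.01 and 8.77 in old livers, against 4.98, 4.56 and 4.85 in young livers (adjusted p = 0.409). Without old replicate 3 the difference of Igkv6-23 was 2.22 and that of 93086_at 2.20, and neither passed, nor did they without young replicate 2 or young replicate 3. Both also missed the threshold with array weights and with the 6 arrays fitted alone, and Igkv6-23 with trend and robust settings. None of the 27 measured B cell and plasma cell markers passed, and their mean level was 6.03, 6.03 and 6.76 in old livers, against 5.95 to 6.10 in young livers. Of these markers 21 had a positive difference and 6 a negative one, with a median of 0.09. The other immunoglobulin genes among them differed by 0.97 (Igkv4-59), 0.49 (Igha), 0.42 (Ighg3), 0.18 (Igk), 0.02 (Ighd) and -0.15 (Iglc1). The immunoglobulin probe sets were already apart at 0 h, by 3.07 for Igkv6-23 (adjusted p = 0.130) and 2.89 for 93086_at (adjusted p = 0.0937). On the arrays of other times, 93086_at passed as higher in old livers at 0.5 h, 1 h and 2 h after PH, and Igkv6-23 at 2 h.

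Of 40 measured interferon-induced genes 37 had a positive difference (92.5%, against 42.9% of all genes), the list median was 0.32, and Ifi27 passed. Ifi27, a mitochondrial protein induced by type I interferon, measured 10.3, 10.2 and 10.2 in old livers, against 9.43, 9.52 and 9.10 in young livers, a difference of 0.90 (1.86-fold, adjusted p = 0.0302 in limma). Ly6e, an interferon-induced surface protein, measured 11.8, 11.9 and 11.8 in old livers, against 10.7, 10.7 and 10.8 in young livers (difference 1.09, adjusted p = 0.0193), by the brighter of its probe sets. The other probe set of Ly6e differed by -0.02. Cxcl9, a chemokine induced by interferon gamma, had the highest value of the list at 1.03, and old replicate 2 alone was high, with 5.40, 7.69 and 5.49 in old livers, against 5.24, 5.20 and 5.04 in young livers. Psmb8, a subunit of the immunoproteasome, differed by 0.87 (adjusted p = 0.152), with no overlap of the ages. The list median was 0.07 at 0 h, 0.36 at 0.5 h, 0.19 at 1 h and 0.36 at 2 h after PH, and 0.10 at 4 h after sham surgery. Ly6e lost its call without young replicate 2, old replicate 2 or old replicate 3. Ifi27 kept its call only when young replicate 1 was left out (adjusted p at most 0.150 over the 6 fits).

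Part of what set old livers apart at 4 h was present before surgery. Of the 27 probe sets, 4 also passed at 0 h, where 18 passed in all (0.145% of those tested), which is 14.8% of the 27 and 22.2% of the 18. These were Ifi27, Noct, 98369_f_at and 98254_f_at, the last of which carries several gene symbols, Noct among them. Noct (nocturnin), a circadian phosphatase with a role in lipid metabolism, measured 11.3, 11.2 and 10.8 in old livers, against 10.4, 9.40 and 9.59 in young livers at 4 h, a difference of 1.32 (0.90 to 1.74, adjusted p = 0.00164 in limma). At 0 h the difference of Noct was 2.11 (adjusted p = 8.85e-08), at 0.5 h 0.68 (adjusted p = 0.139), at 1 h 1.16 (adjusted p = 0.00635) and at 2 h 1.08 (adjusted p = 0.00792). From 0 h to 4 h the gene gained 0.70 in old livers and 1.50 in young livers, both of which passed. The other probe sets annotated to Noct alone differed by 0.53 and 0.77 at 4 h and did not pass. With the 6 arrays fitted alone Noct missed the threshold (adjusted p = 0.167).

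The difference in Ifi27 was 1.06 at 0 h, 1.19 at 0.5 h, 0.99 at 1 h and 1.30 at 2 h after PH, and it passed each time. At 4 h after sham surgery, with 2 arrays for each age, it was 1.38 (adjusted p = 0.0158) and Ifi27 was the 1 probe set that passed there (0.00805% of those tested). At 0.5 h 39 probe sets passed (0.314%), at 1 h 252 (2.03%) and at 2 h 57 (0.459%). Of the 27, 6 were among the 39 (22.2% and 15.4% of the lists), 7 among the 252 (25.9% and 2.78%) and 8 among the 57 (29.6% and 14.04%). Ly6e was in each of these 3 sets, with differences of 1.60, 1.14 and 1.22. H2-Eb1 was in the first (0.63, adjusted p = 0.0345 in limma), Map3k8 in the second (0.65) and Cytip in the third (0.73).

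**Figure D2:**
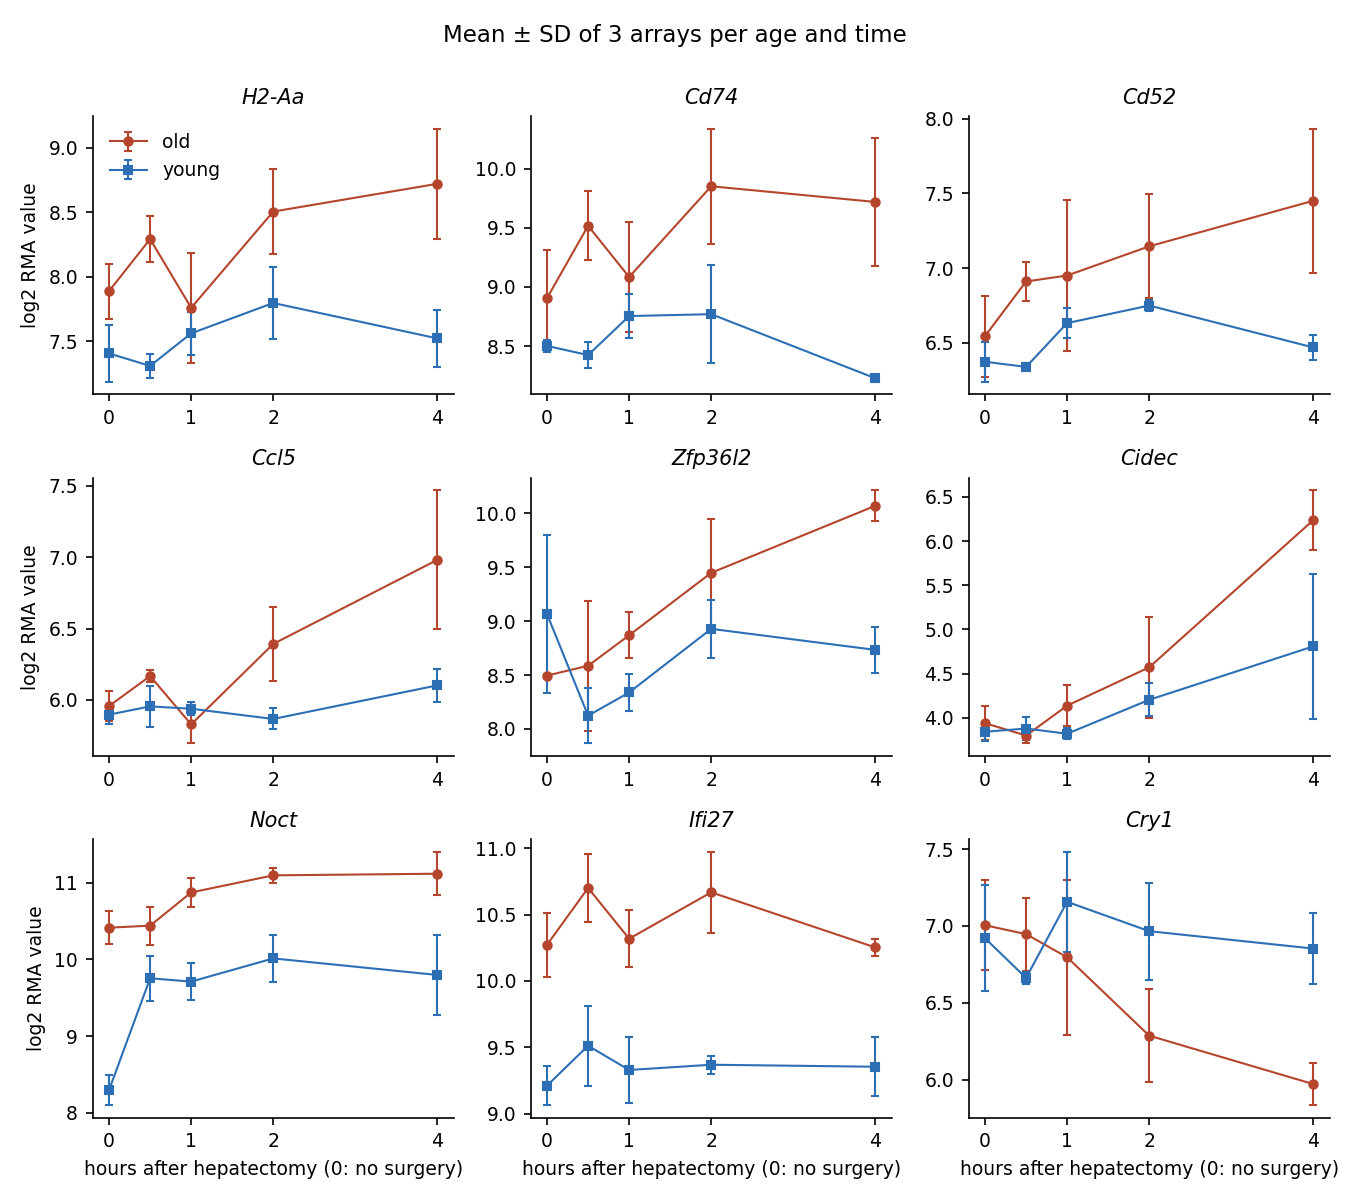
Log2 expression (mean ± SD of 3 arrays) of 9 genes in old and young livers at 0 h and at 0.5, 1, 2 and 4 h after PH. Noct and Ifi27 are apart from 0 h on, whereas the means of Cidec and Ccl5 lie close together at 0 h, with differences of 0.10 and 0.06, and are apart at 4 h.

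The lipid-related genes Cidec and Apoa4 were higher in old livers at 4 h. Cidec, a protein that enlarges lipid droplets, measured 5.95, 6.16 and 6.61 in old livers, against 5.75, 4.40 and 4.27 in young livers, a difference of 1.43 (0.93 to 1.93, 2.69-fold, adjusted p = 0.00440 in limma). Young replicate 1 lay close below the lowest old array, and the other two young arrays lay far lower. Apoa4, an apolipoprotein of intestine and liver that is induced when triglyceride builds up, measured 10.8, 11.1 and 11.3 in old livers, against 9.95, 9.37 and 9.32 in young livers (difference 1.54, 2.91-fold, adjusted p = 0.00898). The difference at 0 h was 0.10 for Cidec and 0.79 for Apoa4, neither of which passed. From 0 h to 4 h Cidec rose by 2.30 in old livers and by 0.97 in young livers, and Apoa4 rose by 1.81 in old livers and by 1.06 in young livers. These 4 changes passed, in comparisons that share the 4 h arrays with the age comparison and in which 14.9% of probe sets passed in old livers and 7.66% in young livers. Cidec and Apoa4 lost their calls without young replicate 2, with differences of 1.23 and 1.45, and without old replicate 3, with differences of 1.24 and 1.41. With the 6 arrays fitted alone Apoa4 passed and Cidec did not (adjusted p = 0.323 in limma).

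Of 34 measured genes of fatty acid and triglyceride synthesis, 22 had a positive difference and the median was 0.06, with Cidec the one that passed. Of 31 genes of fatty acid oxidation and ketone formation none passed and the median was -0.06. Pdk4, the kinase that shuts off pyruvate oxidation in fasting, differed by 1.23 (0.50 to 1.97, adjusted p = 0.210 in limma), with 9.72, 7.48 and 8.15 in old livers, against 8.22, 7.11 and 6.32 in young livers. Ppara, the receptor that drives fatty acid oxidation genes, differed by 0.84 (adjusted p = 0.236) without overlap, at 8.40, 8.68 and 8.15 in old livers, against 7.58, 7.78 and 7.37 in young livers. The 18 cholesterol synthesis genes had the highest median of the lists, 0.38, with none that passed. In 7 of them all old arrays were above all young arrays (38.9%, against 6.98% of all genes). Their median was 0.39 at 0 h, 0.44 at 0.5 h, 0.39 at 1 h and 0.62 at 2 h after PH, and 0.19 at 4 h after sham surgery. Hmgcs1 and Sqle, enzymes of the pathway, differed by 0.93 (adjusted p = 0.377) and 0.79 (adjusted p = 0.409).

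The other named genes with a probe set that passed as higher in old livers were Zfp36l2, Map3k8, Vcam1, Hif1a and Lxn. Zfp36l2, which binds AU-rich elements and speeds the decay of mRNA, measured 10.2, 9.91 and 10.1 in old livers, against 8.50, 8.79 and 8.91 in young livers, a difference of 1.34 (0.79 to 1.88, 2.53-fold, adjusted p = 0.0193 in limma). At 0 h the difference was -0.57, and from 0 h to 4 h Zfp36l2 rose by 1.58 in old livers, against a change of -0.33 in young livers that did not pass. When this change was compared directly between the ages over all arrays, Zfp36l2 did not pass. Its other probe sets differed by 0.40 and 0.22 at 4 h and did not pass. Map3k8, the kinase that links TNF and Toll-like receptors to ERK, measured 5.47, 5.90 and 5.99 in old livers, against 5.21, 4.96 and 4.79 in young livers (difference 0.79, adjusted p = 0.0237), and a second, dimmer probe set differed by -0.04. Vcam1, an adhesion molecule for leukocytes, was 2.02-fold higher by 1 of its 3 probe sets (4.36, 4.88 and 5.24 in old livers, against 3.85, 3.69 and 3.90 in young livers), and by the other two it differed by 0.46 and 0.20 without passing. Hif1a, the oxygen-regulated transcription factor, was 1.72-fold higher by 1 probe set (adjusted p = 0.0454) and differed by 0.63 by the brighter one (adjusted p = 0.208). Lxn, an inhibitor of carboxypeptidases, was 1.33-fold higher at a low level (3.10, 3.25 and 3.24 in old livers, against 2.91, 2.61 and 2.82 in young livers).

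Without old replicate 3 none of Zfp36l2, Map3k8, Vcam1, Hif1a and Lxn passed, with differences of 1.32, 0.69, 0.81, 0.77 and 0.39, nor did any pass without young replicate 2. Zfp36l2 also lost its call without young replicate 1, as did Hif1a. Map3k8, Vcam1, Hif1a and Lxn lost theirs without old replicate 2, and Map3k8 and Lxn without young replicate 3.

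**Figure D3:**
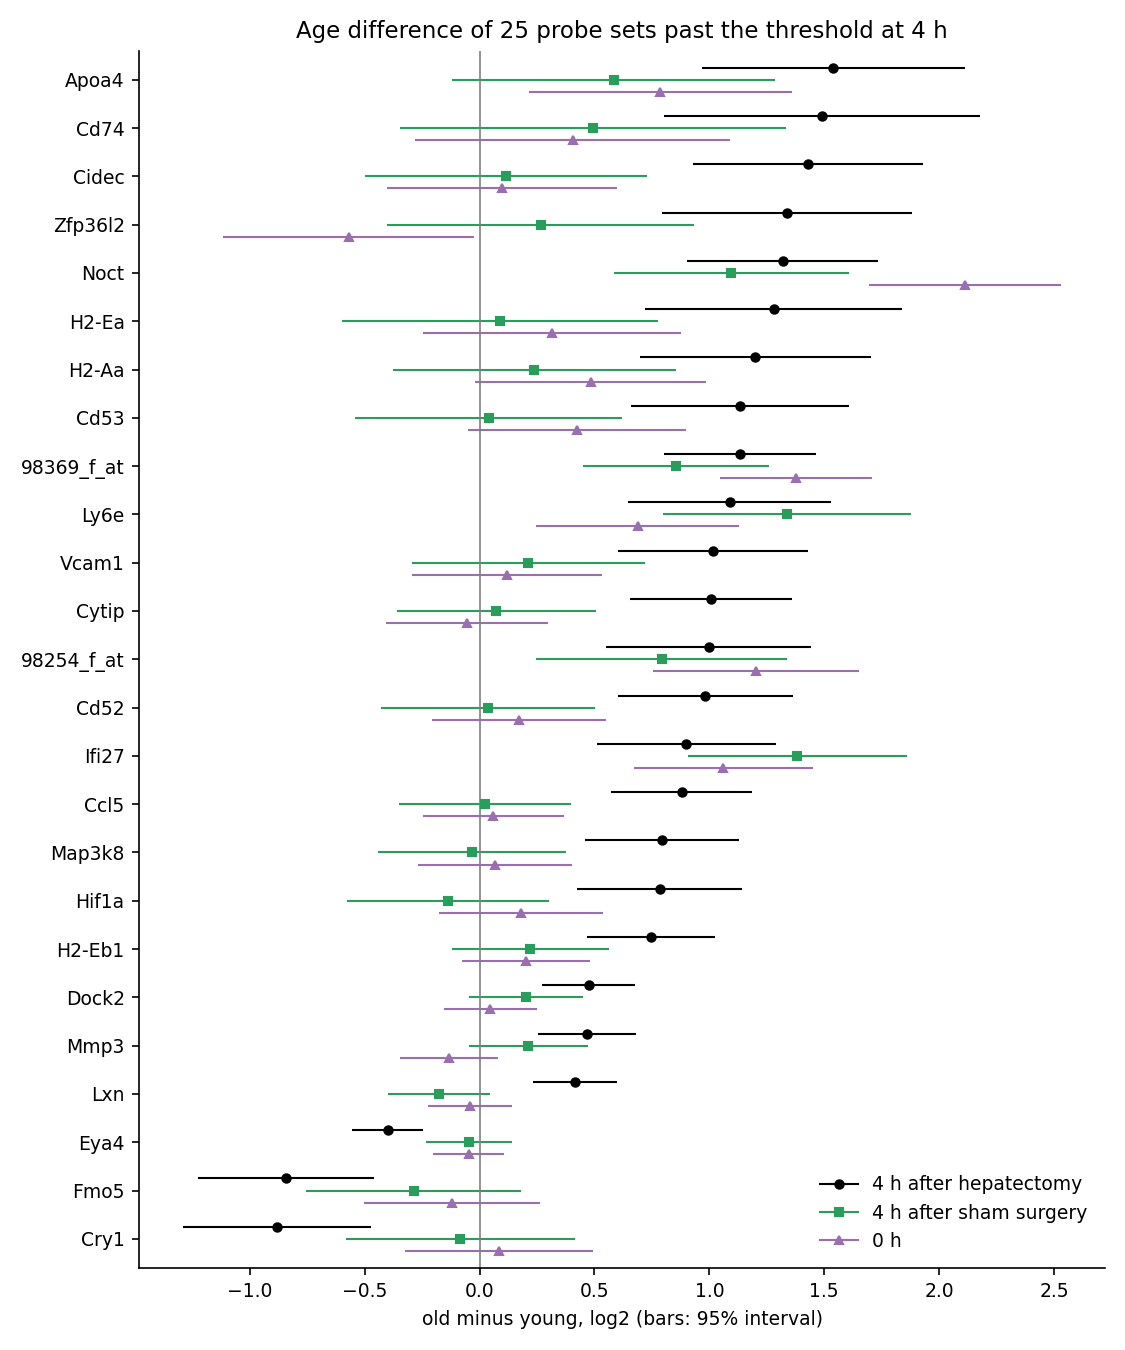
Old minus young difference on the log2 scale, with its 95% interval, of 25 of the probe sets that passed at 4 h after PH (the 2 immunoglobulin probe sets are left out), shown at 4 h after PH, at 4 h after sham surgery and at 0 h. The differences of Ifi27 and their intervals lie above 0 in all 3 conditions (0.90, 1.38 and 1.06), and that of Ccl5 is near 0 after sham surgery (0.02) and at 0 h (0.06).

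The 3 genes that were lower in old livers were Cry1, Fmo5 and Eya4. Cry1, a repressor of the circadian clock, measured 6.12, 5.92 and 5.86 in old livers, against 7.11, 6.77 and 6.67 in young livers, a difference of -0.88 (1.84-fold lower, adjusted p = 0.0486 in limma). At 0 h it differed by 0.08, and by 4 h it fell by 1.03 in old livers, against a change of -0.07 in young livers that did not pass. When the change from 0 h was compared directly between the ages, Cry1 did not pass. Of 17 clock genes measured Cry1 was the one that passed, 8 had a positive difference and the median was 0.00. The other probe sets of Cry1, which are dim, differed by -0.12 and -0.08. Fmo5, a flavin monooxygenase of liver, measured 9.75, 9.34 and 8.97 in old livers, against 10.2, 10.2 and 10.2 in young livers, a difference of -0.84 (1.79-fold lower, adjusted p = 0.0442), and a second probe set differed by -0.40 (adjusted p = 0.128). Fmo5 was the one that passed among 62 cytochrome P450 and conjugation genes, whose median was -0.07. Eya4, a transcriptional coactivator and phosphatase, was near the bottom of the scale, at 2.85, 2.80 and 2.80 in old livers, against 3.29, 3.13 and 3.22 in young livers (difference -0.40, adjusted p = 0.0110).

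The calls of Cry1 and Fmo5 did not hold when most single arrays were left out, while the differences stayed negative. Each gene passed in 1 of the 6 fits that left out an array, the one without old replicate 1. Over the 6 fits the difference ran from -0.97 to -0.75 for Cry1 and from -1.04 to -0.65 for Fmo5. Without old replicate 3 it was -0.83 for Cry1 (adjusted p = 0.380 in limma) and -0.65 for Fmo5 (adjusted p = 0.467). With all arrays kept, Cry1 also missed the threshold with each array centred on its median (adjusted p = 0.0514), with the dimmest probe sets left out (0.0532), with trend and robust settings (0.0568), with array weights (0.144) and with the 6 arrays fitted alone (0.0805). Fmo5 missed it with array weights (0.0551) and with the 6 arrays fitted alone (0.231), and both genes missed it with the replicate number as a block. Eya4 lost its call without old replicate 3 (adjusted p = 0.115).

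Genes known to be induced by hepatectomy were above their 0 h level at both ages at 4 h, and Mt1, Igfbp1 and Lcn2 did not pass between the ages. Metallothionein Mt1, which binds zinc, measured 13.3, 13.1 and 13.3 in old livers, against 13.2, 13.2 and 13.2 in young livers, after changes from 0 h of 5.44 in old livers and 5.06 in young livers that passed. Igfbp1, a hepatic growth factor binding protein, measured 11.8, 11.9 and 11.7 in old livers, against 11.8, 11.7 and 11.8 in young livers, after changes of 4.24 in old livers and 4.41 in young livers that passed. The ages overlapped in both genes, and the interval of the age difference was -1.66 to 1.77 for Mt1 and -1.15 to 1.18 for Igfbp1. Lcn2, an iron-scavenging acute phase protein, differed by 0.58 (-1.79 to 2.94), at 11.5, 11.6 and 11.5 in old livers, against 10.6, 10.9 and 11.4 in young livers. These intervals reach past a 2-fold difference in either direction. Their width rests on a residual variance shared by all 18 groups of the model, not on the spread at 4 h alone. At 4 h the arrays of both ages lay within 13.1 to 13.3 for Mt1 and within 11.7 to 11.9 for Igfbp1, a narrower range than the intervals.

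Among transcription factors of the priming phase, Cebpd differed by 0.44 (-0.38 to 1.26), Cebpb by 0.09, Jun by 0.35, Myc by 0.38 (-0.39 to 1.14), Atf3 by -0.02, Egr1 by -0.21 and Fos by -0.35 (-2.22 to 1.52), and none passed in limma. Young replicate 1 stood above the other young arrays in several of them, with Myc at 5.23, 6.20 and 6.01 in old livers, against 6.45, 4.72 and 5.12 in young livers, and Fos at 7.004, 5.79 and 5.97 in old livers, against 7.72, 5.90 and 6.20 in young livers. Without it, the differences of Atf3, Egr1 and Fos were 0.59, 0.21 and 0.21. Of 40 immediate early genes none passed, 22 had a positive difference and the median was 0.04. Ier3, an early stress response gene, had the largest difference at 1.21 (0.15 to 2.27, adjusted p = 0.461).

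Of 28 IL-6 and STAT signalling genes none passed, 23 had a positive difference, and the median was 0.15. Socs3, the feedback inhibitor of STAT3, measured 8.84, 9.18 and 9.24 in old livers, against 8.20, 8.26 and 8.35 in young livers, a difference of 0.82 (0.19 to 1.44, adjusted p = 0.354 in limma) without overlap. Socs2, an inhibitor of growth hormone signalling, differed by 0.94 (adjusted p = 0.538) and Osmr, the oncostatin M receptor, by 0.91 (adjusted p = 0.531). Of 40 NF-kB and chemokine genes 32 had a positive difference, the median was 0.18, and Ccl5 passed. Ccl2, a chemokine for monocytes, had the largest difference at 1.73 (adjusted p = 0.317), with a wide spread of 5.13, 9.25 and 7.14 in old livers, against 6.29, 4.79 and 5.25 in young livers. Il1b, a cytokine of activated macrophages, differed by 0.78 (adjusted p = 0.361). Of 27 acute phase genes none passed and the median was 0.14, with Saa3 at 1.20 (-0.31 to 2.70) and Saa2 at -0.10 (-2.28 to 2.08).

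Genes of growth and division did not pass. Ccnd1, the cyclin of the step from G1 to S phase, differed by 0.04 (-0.33 to 0.41) and Cdkn1a, the inhibitor p21, by -0.11 (-0.34 to 0.11). Cdkn1a measured 9.33, 9.31 and 9.22 in old livers, against 9.15, 9.49 and 9.55 in young livers, and it rose by 1.09 in old livers and by 1.06 in young livers from 0 h. Of 50 cell cycle genes 19 had a positive difference and the median was -0.04, with the largest difference for Pcna, the sliding clamp of DNA polymerase, at 0.38 (adjusted p = 0.230 in limma). Fst (follistatin), which binds activin, differed by 0.89 (0.45 to 1.33, adjusted p = 0.0809), at 6.64, 6.83 and 7.86 in old livers, against 6.29, 6.09 and 6.29 in young livers, and the 47 growth factor and receptor genes had a median of 0.00. Of 51 ribosome biogenesis genes 39 had a positive difference, with a median of 0.09, and the largest was Nop58, a nucleolar protein, at 0.65 (adjusted p = 0.428).

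**Figure D4:**
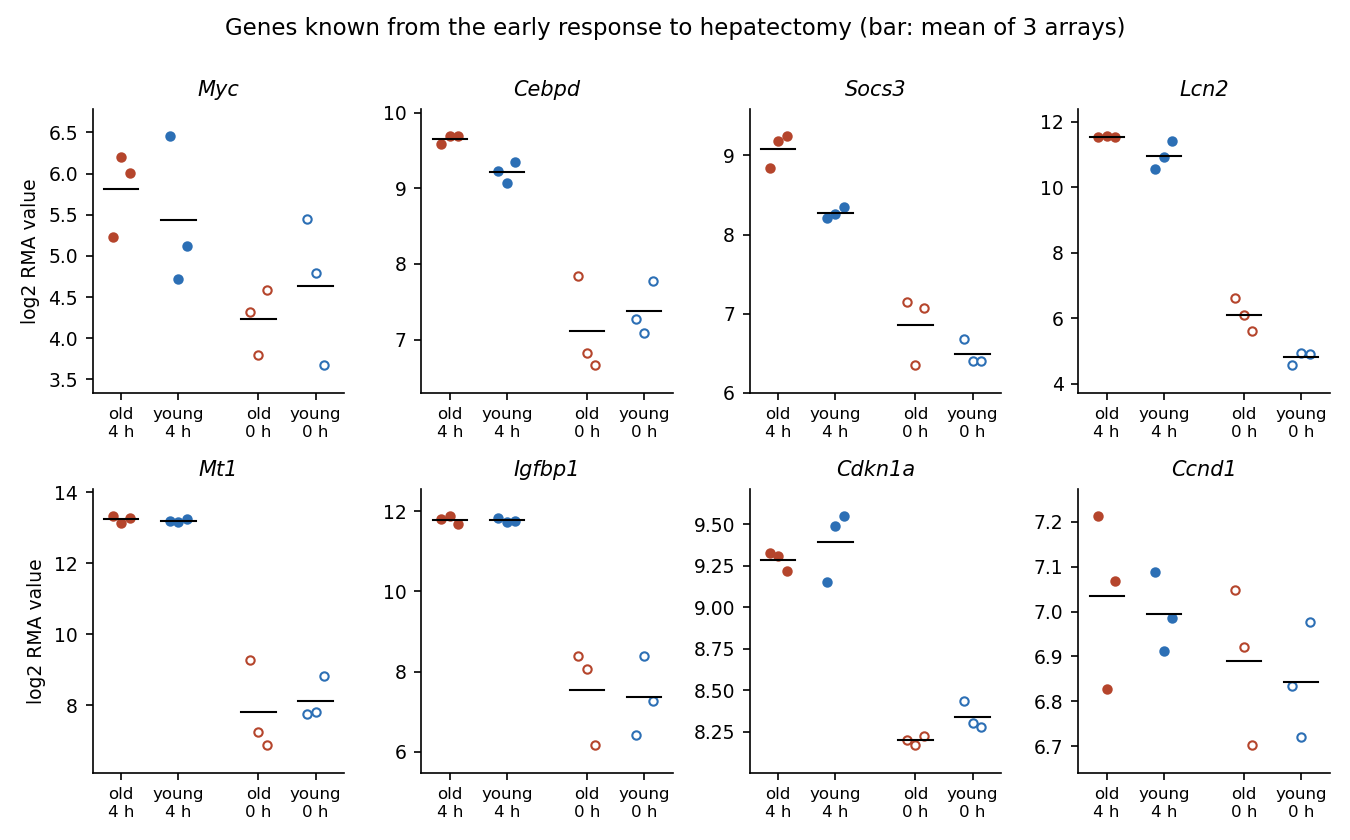
Log2 expression of 8 genes of the response to PH, with each array as a point, in old and young livers at 4 h after PH and at 0 h. At 4 h the old and young points of Mt1 and Igfbp1 overlap near 13.2 and 11.8, and those of Socs3 do not overlap.

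The remaining hepatocyte lists held few or no genes that passed. Of 56 secreted protein genes 34 had a positive difference, the median was 0.05, and Apoa4 passed. The 26 gluconeogenesis and glycogen genes and the 19 bile acid genes had medians of -0.10 and -0.11, with 6 and 5 positive differences and none that passed. Cyp8b1, which sets the cholic acid content of bile, differed by -0.67 (-1.58 to 0.25), and Nr0b2, a repressor of bile acid synthesis, by -0.65 (adjusted p = 0.383 in limma). Hhex, a homeobox factor of liver, differed by -0.80 (adjusted p = 0.383) among 38 liver transcription factor genes with a median of 0.02. Of 18 male-biased liver genes 4 had a positive difference and the median was -0.12, with Keg1 at -1.13 (6.10, 6.91 and 6.33 in old livers, against 7.66, 7.57 and 7.49 in young livers, adjusted p = 0.495). The 21 female-biased genes had a median of 0.05, and Apoa4 passed. The heat shock and ER stress (42 genes), hypoxia and oxidative stress (39) and p53 and senescence (19) lists had medians of 0.02, 0.05 and -0.04.

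**Figure D5:**
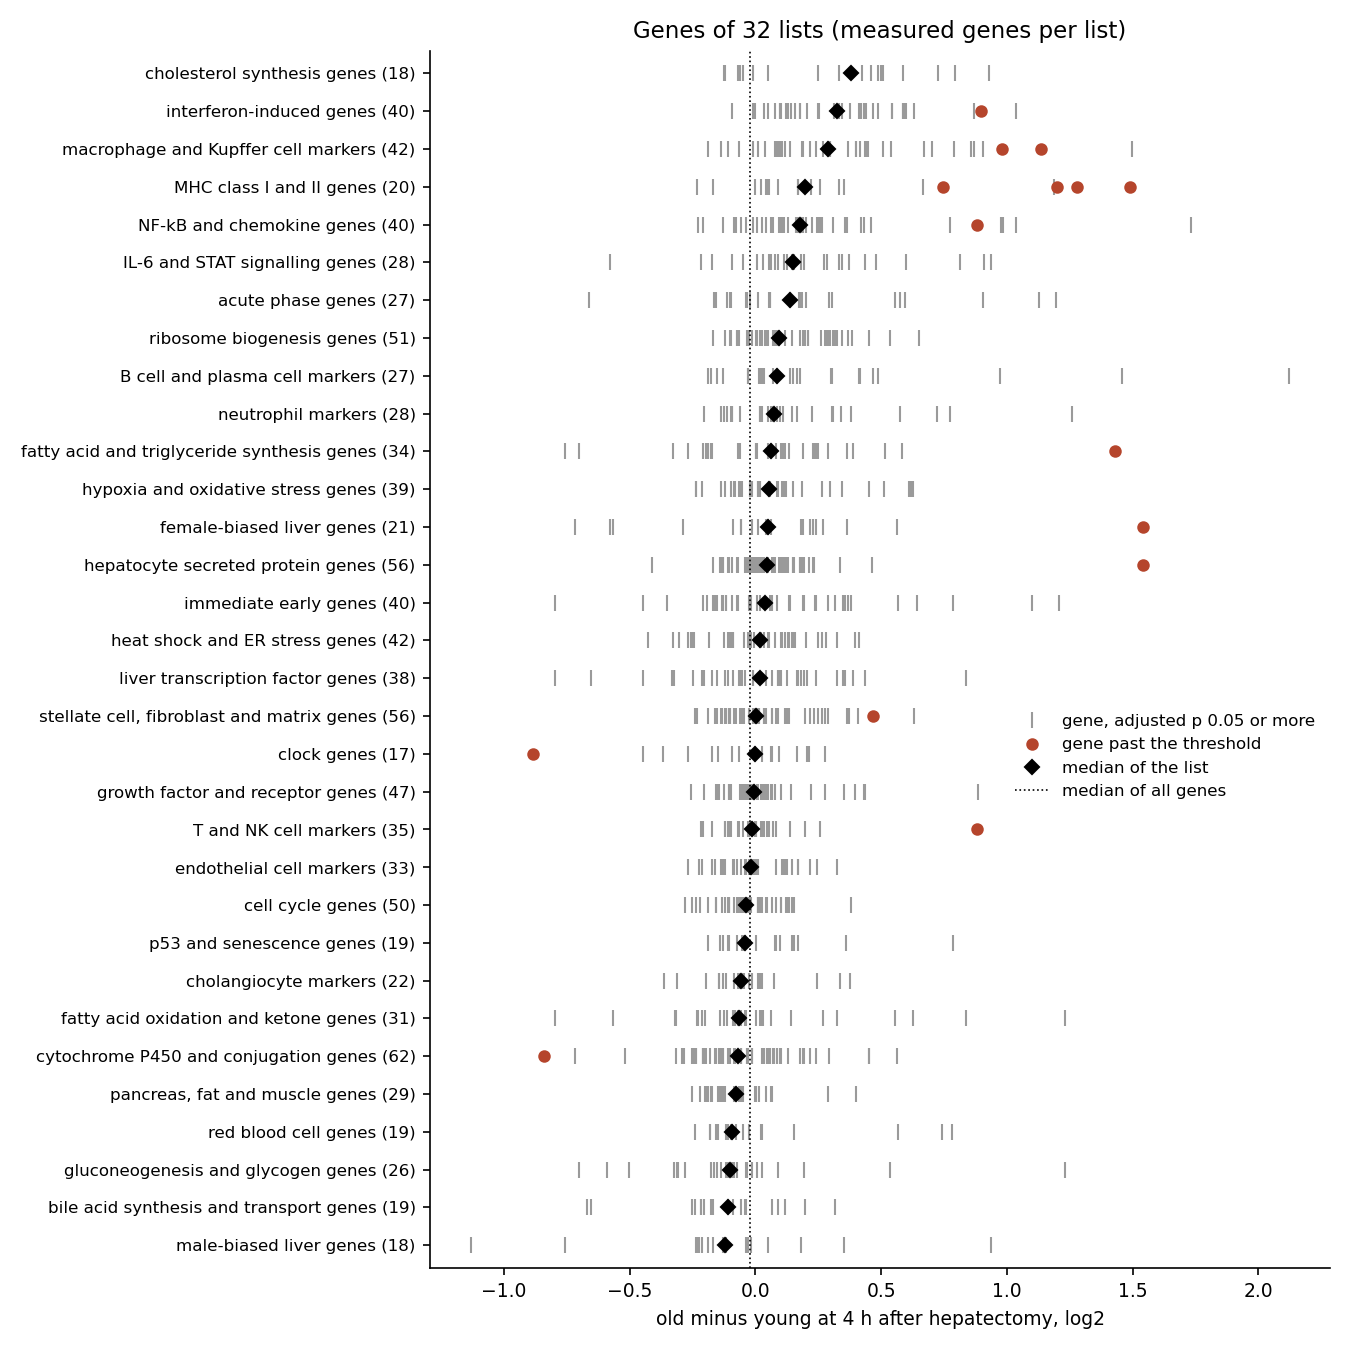
Old minus young difference at 4 h after PH, on the log2 scale, of the measured members of 32 gene lists, each mark 1 gene (red circles passed the test), with the list median as a diamond and the median of all genes as a dotted line. The list medians run from -0.12 for the male-biased genes to 0.38 for the cholesterol synthesis genes, with the interferon-induced genes at 0.32 and the macrophage markers at 0.29.

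Whether the change from 0 h to 4 h differed between the ages was tested directly, in a contrast that shares the 4 h arrays with the age comparison. No probe set passed in limma (0% of those tested), and 563 had an unadjusted p under 0.05. Zfp36l2 had the smallest adjusted p, with a change that was larger in old livers by 1.91 ± 0.38 (SE, adjusted p = 0.205). It was followed by Socs2 at 2.87 ± 0.67, Cytip at 1.06 ± 0.25 (both adjusted p = 0.400) and Mmp3 at 0.60 ± 0.15 (adjusted p = 0.486). Socs2 and Zbtb16, a zinc finger repressor (2.62 ± 0.67, adjusted p = 0.509), were lower in old livers at 0 h, by -1.93 and -2.26, and differed by 0.94 and 0.36 at 4 h. Among the class II genes the change in Cd74 was larger in old livers by 1.09 and that in H2-Aa by 0.72, and the change in Noct was smaller by -0.79, with adjusted p = 1 for all 3. With array weights Zfp36l2 passed (2.22, adjusted p = 0.00594). Without young PH replicate 1 Cidec and Cytip passed, without old PH replicate 1 Ccl5 passed, without young control replicate 3 Zfp36l2 passed, and without old control replicate 1 an unnamed probe set passed.

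The same question against the sham operation had 2 sham arrays for each age. The 16 sham arrays of the study lay apart from the rest on the first principal component (26.8% of the variance), at 7.75 to 30.3, against -34.1 to 6.27 for the other 30 arrays. No probe set passed in the age difference of PH minus sham (0% of those tested) in limma, and 576 had an unadjusted p under 0.05. Ccdc28b, a centrosome-associated protein, had the smallest adjusted p, at -0.61 ± 0.14 (SE, adjusted p = 0.943), followed by Lxn at 0.59 ± 0.14, Slfn4, an interferon-induced gene of myeloid cells, at 0.67 ± 0.16, Rasip1, an endothelial regulator of small GTPases, at 0.98 ± 0.25, and Abcd4, a vitamin B12 transporter, at -0.65 ± 0.16 (adjusted p = 0.962 for all 4). Without young PH replicate 1 Cidec passed, and without old PH replicate 1 Ccl5 passed. At 4 h after sham surgery the age differences of the class II genes were 0.49 for Cd74, 0.24 for H2-Aa, 0.09 for H2-Ea and 0.22 for H2-Eb1, none of which passed.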

How the data were processed

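Total RNA of whole liver from 46 samples was hybridised to arrays. The deposited values are log2 expression levels made with RMA, per the submitters' processing notes; its version is not given in the sources used here. They were used as deposited. The precision is limited by how many arrays each group has. Of 12488 probe sets, 66 controls were left out. Of the 12422 tested, 10833 carried 1 gene symbol in the platform annotation, 396 several and 1193 none.

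All 46 arrays entered 1 linear model with 18 group means (lmFit and eBayes of limma 3.58.1, run in R 4.3.3, with 28 residual degrees of freedom). Contrasts passed at a Benjamini-Hochberg adjusted p under 0.05 over all probe sets. The fit was tested on simulated data. In lists each gene was counted once, by its brightest probe set on average. Replicate numbers were not taken as pairs.

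Genes were named when among the 15 highest or 15 lowest that passed, up to 4 passing members of a list or 2 as values where none passed, the 8 with the smallest adjusted p of the other tests, and a set of regeneration genes. 93086_at, 98369_f_at, 98254_f_at, Vcam1, Dock2, Cxcl9, Ccl2, Lyz2, Psmb8, C1qb, the probe set of Hif1a that passed and further pathway genes were named after their values were seen. The members and lists were chosen with earlier results of these data known. Alternatives were median centring, leaving out dim probe sets, trend and robust eBayes, array weights, 1 probe set per gene, leaving out cross-hybridising probe sets, a replicate block, the compared groups alone, and leaving out each array.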

Additional observations from a re-analysis of the deposited data

How the results depend on the processing

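Of the 27 probe sets that passed between the ages at 4 h after PH, the count was 32 with each array centred on its median, 23 with trend and robust settings, 23 with array weights, 24 with 1 probe set per gene, 20 without cross-hybridisation suffixes and 24 with the replicate number as a block (22 higher in old livers, 2 lower). Under that block Cd74 (adjusted p = 0.0649), Cry1 (0.0680), Fmo5 (0.0577) and 98254_f_at missed the threshold in limma. Same-numbered old and young arrays correlated at -0.21, 0.00 and -0.04 in their deviations from the group means. With 3 arrays a group these values cannot settle whether the numbers pair the samples, which the labels do not state. The count was 17 with the dimmest 25% of probe sets left out (16 higher in old livers, 1 lower). In that setting 20 of the 27 were still tested, and the rest, Cidec and Mmp3 among them, were left out as dim. It was 14 with the 6 arrays alone (5 of the 27 kept, with fewer residual degrees of freedom), 7 at an adjusted p under 0.01 and 14 with a log2 difference of at least 1, all higher in old livers. The 5 kept with the 6 arrays alone were Apoa4, Cd53, Ifi27, Ly6e and Zfp36l2. Leaving out 1 array gave 2 to 68, with 4 without young replicate 2. For the age difference in the change from 0 h the count of 0 became 1 with array weights and 0 to 2 when an array was left out, and for PH minus sham 0 to 1. The replicate block left both at 0. Over the alternatives the counts were 2 to 623 at 0 h, 16 to 96 at 0.5 h, 1 to 486 at 1 h, 20 to 88 at 2 h and 1 to 15 after sham surgery. Values near 0 changed sign when an array was left out. Over the 6 such fits Ccnd1 ran from -0.048 to 0.145 (-0.00127 without young replicate 2), Igfbp1 from -0.030 to 0.059 (-0.010 without young replicate 2), Atf3 from -0.45 to 0.59 (0.07 without old replicate 2), Saa2 from -0.29 to 0.030, Egr1 from -0.64 to 0.21 (0.08 without old replicate 2) and Fos from -0.72 to 0.21. With array weights Atf3 was 0.16. The cause of these shifts was not tested. With 3 arrays for each age, small differences were below what could be detected.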
